A study of Mus musculus with 12 samples.

Results

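The comparison described here asked whether RNA of aortic endothelial cells differed with the mother's diet in offspring that were themselves on CD. It set 3 libraries from CD offspring of WD mothers (WD_CD) against 3 libraries from CD offspring of CD mothers (CD_CD), 6 of the 12 RNA libraries of the series, and covered all 10655 genes of the deposited table. The libraries were chosen by their titles, which join the names of a pair of diets. The leading name was taken as the mother's diet and the other as the offspring's, because the series text orders its groups that way. Fold changes and tests were computed from the normalised values of each library, not taken from the statistics that the authors deposited. The cells are labelled MAECs, mouse aortic endothelial cells, and their RNA was extracted with Trizol and sequenced by SMART-seq, a protocol that reads transcripts along their full length. The diets are named CD and WD as the labels name them, and by its title the series concerns atherosclerosis after a high-fat diet of the mother. All groups share the source, the labelled cell type and the library protocol. The labels give no strain, genotype, sex, age, cell sorting, pooling or batch, and they do not say whether replicates came from separate animals. What the p-values measure is therefore the spread of these libraries alone, and that spread may be technical.

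Endothelial cells line the vessel wall and face the blood. They sense flow, make nitric oxide through Nos3, hold the barrier closed with junction proteins, keep clotting in check and, when activated, display adhesion molecules that catch leukocytes. In atherosclerosis the lining becomes leaky and adhesive at sites of disturbed flow, and lipoproteins and monocytes enter the wall beneath it. Diet in early life is widely studied as a source of lasting marks on such cells, through chromatin and DNA methylation among other routes, so lists of genes for these functions were examined beside the genes that differed most.

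No gene rose or fell with the mother's diet at an adjusted p under 0.05 (limma with a mean-variance trend, Benjamini-Hochberg adjustment over 10655 genes). This is 0.0% of the genes tested, and the smallest adjusted p was 0.961, a value that every gene named below reached or exceeded. At an unadjusted p under 0.05 there were 338 genes (3.17%), 123 higher (1.15%) and 215 lower (2.02%) in WD_CD. This was below the 5% of genes that pass such a threshold on average when no gene differs. The count models run on the recovered reads called 0 genes with edgeR's quasi-likelihood test and 2 genes, Ung and Hinfp, with DESeq2. The precision sets the reach of this result. Half-widths of the 95% confidence interval of the log2 fold change had a median of 1.13 over all genes, and 2443 genes (22.9%) had an interval that lay within 1 unit of 0 on both sides. With genes divided by mean level into 4 equal bins, 1813 (68.1%) of the top bin, above 532 normalised counts, had such an interval. In the bottom bin, below 119, there were 0. For no gene of the bottom bin did the interval hold the change to under 2-fold in both directions.

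**Figure D1:**
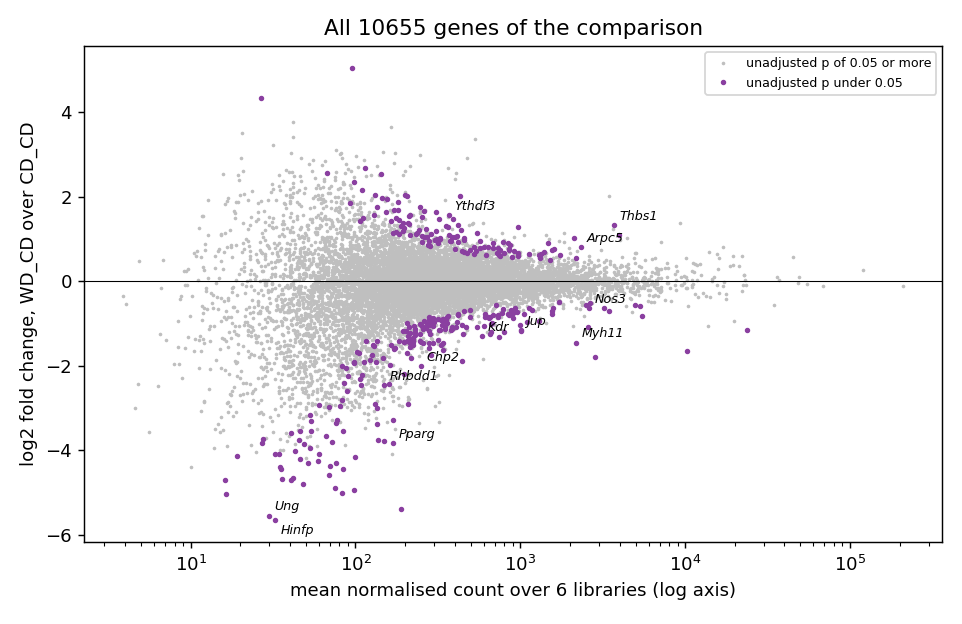
The log2 fold change of WD_CD over CD_CD (vertical axis) against the mean normalised count over the 6 libraries (log horizontal axis) for 10655 genes, with the 338 genes of unadjusted p under 0.05 in purple and 12 genes labelled. Weakly expressed genes spread widely, more of them far below 0 than far above it, while well expressed genes lie close to 0.

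Reads in the listed genes numbered 16888763 to 19670570 per library, except WD_CD replicate 3 with 10667657, which also had the most genes without a read (463, against 0 to 172 in the other libraries). Markers that define endothelial cells were high in every library. Normalised counts of Pecam1, an adhesion molecule of endothelial contacts, were 21538, 29878 and 17284 in CD_CD and 18154, 26277 and 24698 in WD_CD. Those of Cdh5, the cadherin of endothelial junctions, were 2190.4, 1924 and 2492 in CD_CD and 1730.4, 1681 and 3241 in WD_CD. Both groups overlapped for both genes. Transcripts of other cells of the vessel wall and blood were present too, in amounts that differed between libraries of the same group, as described with the marker lists.

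The gene with the smallest p was Jup (plakoglobin), which links cadherins of adherens junctions and desmosomes to the cytoskeleton. It lies on GRCm38 at chromosome 11, 100368958 to 100397763, minus strand. Its normalised counts were 1333, 1422 and 1405 in CD_CD and 679.6, 662 and 529.6 in WD_CD. The 3 CD_CD libraries lay close together and each was above every WD_CD library, which gave means of 1387 ± 47.4 in CD_CD and 624 ± 82.0 in WD_CD (SD, n = 3) and a log2 fold change of -1.16 ± 0.23 (SE). Its unadjusted limma p was 0.000494.

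Chp2, a calcium-binding partner of sodium-proton exchangers (chromosome 7, 122219496 to 122222824, plus strand), had normalised counts of 540.5, 306 and 357 in CD_CD and 67.9, 89.3 and 145 in WD_CD. The groups did not overlap, and the log2 fold change was -2.01 ± 0.49 (SE). Rhbdd1, a rhomboid-type protease of the endoplasmic reticulum (chromosome 1, 82316452 to 82445366, plus strand), had 311, 296 and 157 in CD_CD and 48.4, 52.6 and 32.8 in WD_CD. All 3 WD_CD libraries were low and the log2 fold change was -2.45 ± 0.63 (SE), the lowest fold change of the 8 genes named by smallest p in the downward direction. Adgrg1, an adhesion G-protein-coupled receptor also called GPR56, had 917, 949.7 and 864 in CD_CD and 540.0, 451 and 225 in WD_CD (log2 fold change -1.26 ± 0.35, SE), with the lowest value in WD_CD replicate 3. The other 4 of these genes also had no overlap between groups, with log2 fold changes from -1.57 to -0.99. They were Jagn1, a protein of the secretory pathway, at -1.57; Filip1l, which binds filamin A, at -1.19; Tanc1, a scaffold protein, at -1.07; and Sh3bp5, an exchange factor for Rab11, at -0.99.

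In the upward direction Ythdf3 had the smallest p. It encodes a cytoplasmic reader of N6-methyladenosine, the most common internal mark of messenger RNA, and lies at chromosome 3, 16183212 to 16217037, plus strand. Its normalised counts were 172, 185 and 197 in CD_CD and 593, 585 and 472 in WD_CD. The WD_CD libraries were all above all CD_CD libraries, with means of 185 ± 12.4 in CD_CD and 549.8 ± 67.4 in WD_CD (SD, n = 3) and a log2 fold change of 1.56 ± 0.33 (SE, unadjusted limma p 0.000766). It was 1 of 13 genes with an adjusted p under 0.05 in the authors' deposited table, where its log2 fold change was 1.58 and its adjusted p 0.0011.

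Thbs1 (thrombospondin 1), a matrix protein that restrains angiogenesis and binds CD36 and CD47 (chromosome 2, 118111876 to 118127133, plus strand), had normalised counts of 2463, 2742 and 1272 in CD_CD and 4071, 4923 and 6767 in WD_CD. The groups did not overlap, the lowest CD_CD library was replicate 3, and the log2 fold change was 1.33 ± 0.32 (SE). Cd36, the gene of that receptor and of fatty acid uptake, had 9057, 2622 and 4785 in CD_CD and 3149, 3936 and 2748 in WD_CD and overlapped between groups, with 1 high library, CD_CD replicate 1. Arpc5, a subunit of the Arp2/3 complex that branches actin filaments (chromosome 1, 152766542 to 152775597, plus strand), had 2188, 1608 and 1384 in CD_CD and 3183, 2709.9 and 2976 in WD_CD. Its groups did not overlap and its log2 fold change was 0.80 ± 0.23 (SE). Slc11a1, a metal ion transporter of macrophage phagosomes, had 275, 190.0 and 155 in CD_CD and 556, 376 and 583 in WD_CD, again without overlap, and a log2 fold change of 1.30 ± 0.38 (SE). The summed normalised counts of macrophage and monocyte markers were 28841, 44744 and 32290 in CD_CD and 148630, 15268 and 63428 in WD_CD, and their part in this difference was not tested. The other 4 genes of the upward 8 did not overlap between groups either. They were Paxip1, a protein of DNA damage responses and of histone methyltransferase complexes, at a log2 fold change of 2.0; Gga2, a Golgi sorting adaptor, at 1.47; Pip4k2a, a lipid kinase, at 1.46; and Ppp2r5c, a regulatory subunit of protein phosphatase 2A, at 0.85.

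**Figure D2:**
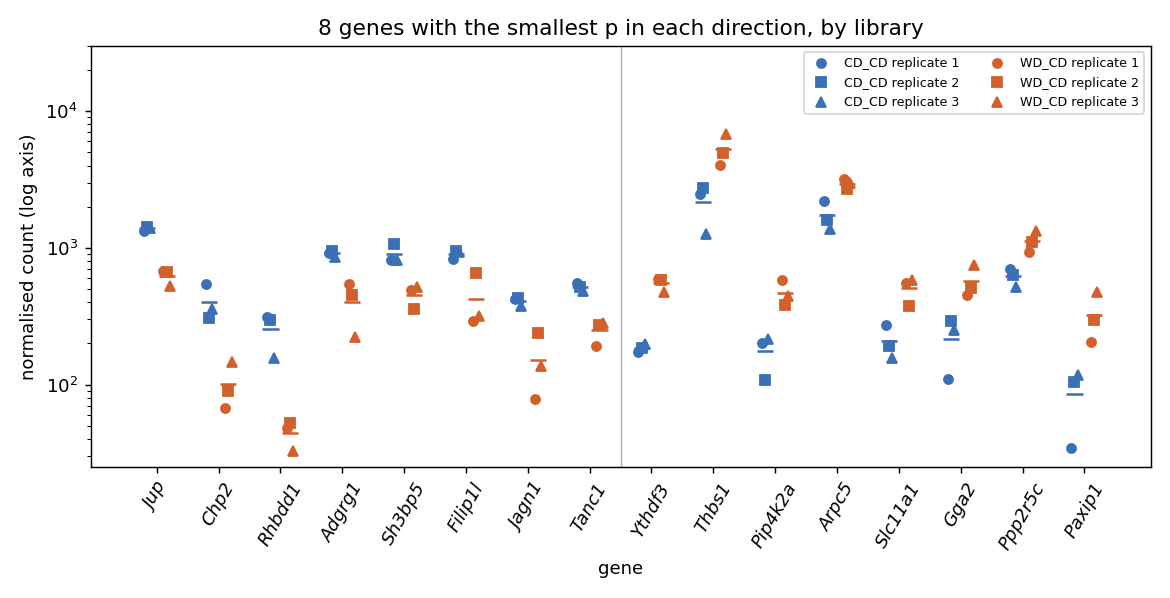
Normalised counts (log axis) per library of the 8 genes with the smallest p among those lower (left of the line) and higher (right) in WD_CD, with points for replicates and bars for the mean of each group of 3. In all 16 genes the groups stand apart, which is how small p-values pick genes, and none passed the adjusted threshold.

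Groups that do not overlap were not rare. Over all genes tested, 945 (8.87%) had every WD_CD library on 1 side of every CD_CD library, 426 higher (4.0%) and 519 lower (4.87%). With 3 libraries a side such separation also arises without a difference between groups, so by itself it is no sign of 1. These shares stand beside the statements on overlap that follow as well. Among the 1468 genes with a mean of at least 1000 normalised counts in a group, 63 were higher and 52 lower without overlap. Besides Thbs1, Arpc5, Ppp2r5c and Jup, the largest differences upward among these well expressed genes were in Cers5, a ceramide synthase (0.94 ± 0.32, log2 fold change and SE), Pros1 (0.91 ± 0.33), Stip1 (0.91 ± 0.30), Ythdf2 (0.77 ± 0.26) and Serp1, a protein of the stressed endoplasmic reticulum (0.74 ± 0.27). Downward they were in Tmem204, a membrane protein of endothelial cells (-1.31 ± 0.45), Tmem88, an inhibitor of Wnt signalling (-1.17 ± 0.42), Errfi1, a feedback inhibitor of EGF receptors (-0.97 ± 0.32), Kank3 (-0.86 ± 0.36), the stress transcription factor Atf4 (-0.78 ± 0.30), the matrix proteoglycan Prelp (-0.77 ± 0.27) and the taurine transporter Slc6a6 (-0.77 ± 0.29). Errfi1 came close to overlap, since WD_CD replicate 2 reached 1041 normalised counts against 1087 in CD_CD replicate 2.

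Of 30 pan-endothelial genes, 28 had a log2 fold change below 0 and 2 above, against 54.0% and 46.0% of all genes. None was called, and 5 had an unadjusted p under 0.05, all lower, beside 2.02% of all genes lower at that p. The shares of all genes above and below 0 stand beside the sign counts of the lists that follow as well. The median was -0.21, beside -0.05 over all genes, and it lay between -0.29 and -0.17 without single libraries, with TMM scaling and with a pseudocount of 5. The mean log2 level of the list was 11.47, 11.51 and 11.48 in CD_CD and 10.93, 11.36 and 11.22 in WD_CD, lowest in WD_CD replicate 1. The summed normalised counts of the list overlapped between groups, at 131390, 160400 and 134910 in CD_CD and 102040, 138050 and 138110 in WD_CD. In bulk RNA, fewer endothelial cells and less endothelial RNA per cell cannot be told apart, and neither was tested.

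Among endothelial receptors, Kdr (VEGF receptor 2), the main receptor for VEGF-A, had normalised counts of 1086, 468 and 948 in CD_CD and 179, 428 and 418 in WD_CD. Every WD_CD library was below every CD_CD library, but CD_CD replicate 2 exceeded the highest WD_CD library by less than the CD_CD libraries differed among themselves (log2 fold change -1.30 ± 0.44, SE). Flt1, the other VEGF receptor of this lining, had 1325, 662 and 1367 in CD_CD and 661, 706 and 794 in WD_CD and overlapped. Robo4, a guidance receptor that stabilises vessels, had 439.6, 345 and 683 in CD_CD and 134, 348 and 74.2 in WD_CD, with an overlap through WD_CD replicate 2. Endoglin (Eng), a co-receptor for TGF-beta and BMP ligands, had 6430.1, 6822 and 5667 in CD_CD and 3479.5, 5793 and 3663 in WD_CD and also overlapped through that library. Tek, the receptor of the angiopoietins, had a log2 fold change of -0.15 ± 0.28 (SE), and Tie1 had -0.12 ± 0.28. Of the 14 genes of VEGF and angiopoietin signalling, 5 were above 0 and 9 below, with a median of -0.09.

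Among junction genes, Cldn5, the claudin of endothelial tight junctions, had normalised counts of 5748, 5519.8 and 6495 in CD_CD and 3893, 3428 and 4827 in WD_CD. All WD_CD libraries were lower and the log2 fold change was -0.56 ± 0.22 (SE), whereas Cdh5 at -0.05 ± 0.28 and Pecam1 at 0.03 ± 0.31 had intervals on both sides of 0.

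For nitric oxide and flow, Nos3, the endothelial nitric oxide synthase (chromosome 5, 24364810 to 24384474, plus strand), had normalised counts of 2689, 3933 and 2871 in CD_CD and 1617, 2514 and 1999.5 in WD_CD. All 3 WD_CD libraries were below the 3 CD_CD libraries, and the log2 fold change was -0.63 ± 0.25 (SE). Ppap2b, now called Plpp3, which degrades lysophosphatidic acid and is induced by laminar flow, had 3041, 3118 and 3178 in CD_CD and 2639.9, 1856 and 2098 in WD_CD, again without overlap (-0.52 ± 0.21, SE). The flow-induced transcription factors went with neither. Klf2 had 3839, 4344 and 3299 in CD_CD and 3049, 4453 and 3675 in WD_CD, and its log2 fold change was -0.05 ± 0.23 (SE). Klf4 had a log2 fold change of -0.08 ± 0.21, with a 95% interval from -0.55 to 0.39. Nfe2l2, the NRF2 gene, had 1463, 1416 and 1066 in CD_CD and 1749.9, 1682 and 1925 in WD_CD, higher in every WD_CD library. Over the 11 flow genes measured, 5 were above 0 and 6 below, and the median was -0.05.

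Among genes for leukocyte capture the main adhesion molecules overlapped between groups. Vcam1, a ligand for monocyte integrins, had normalised counts of 5706, 10556 and 4915 in CD_CD and 5434, 11139 and 9260.4 in WD_CD, and its log2 fold change was 0.31 ± 0.35 (SE). Icam1 had 4106, 6319 and 2645 in CD_CD and 3107, 8702 and 4067 in WD_CD and E-selectin (Sele) had 447, 1250.5 and 162 in CD_CD and 447, 1043 and 882 in WD_CD. For all 3 genes the highest CD_CD value was in replicate 2 and the highest WD_CD value in replicate 2 as well. Of 16 genes for adhesion and chemokines, 11 were above 0 and 5 below, and the median was 0.25, which was -0.03 without CD_CD replicate 3 and 0.52 without CD_CD replicate 2. The 2 members without overlap were Cxcl12, a chemokine that holds and guides leukocytes, which was higher in every WD_CD library (0.51 ± 0.26, SE), and Cd99l2, which takes part in leukocyte passage, which was lower (-0.84 ± 0.37). Of all genes 8.87% had no overlap, 4.0% higher and 4.87% lower. The NF-kB genes had a median of 0.07 over 19 members, with Tnip1, a feedback inhibitor, at 1.01 ± 0.47 and Nfkb1 at 0.48 ± 0.28, both without overlap beside the same shares of all genes. The 24 AP-1 and immediate early genes were split 12 and 12 with a median of 0.01. Fos, the best known of them, ranged from 16964 to 46708 normalised counts within CD_CD alone.

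For clotting, Pros1 (protein S), a cofactor of the anticoagulant protein C, had normalised counts of 1168, 1381 and 609.9 in CD_CD and 2292, 1994 and 1433 in WD_CD. The WD_CD libraries were above the CD_CD libraries, though WD_CD replicate 3 stood only a little above CD_CD replicate 2 (0.91 ± 0.33, SE). Thrombomodulin (Thbd), the endothelial receptor that turns thrombin toward protein C, had 1337, 2292 and 1371 in CD_CD and 2055, 2096 and 2272 in WD_CD and overlapped. Over 13 coagulation and fibrinolysis genes, 10 were above 0 and 3 below, with a median of 0.29 that was 0.06 without CD_CD replicate 1 and 0.66 without CD_CD replicate 2. Endothelin 1 (Edn1), the vasoconstrictor that opposes nitric oxide, had a log2 fold change of 0.51 ± 0.37 (SE) with overlap.

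All 19 smooth muscle genes measured had a log2 fold change below 0, beside 54.0% of all genes, with a median of -0.83 and a range from -1.80 to -0.05. Of these, 5 had an unadjusted p under 0.05, beside 2.02% of all genes lower at that p. Of the list 0 were called and 0 separated the groups. Myh11, the myosin heavy chain of smooth muscle, had normalised counts of 3524, 2022 and 3664 in CD_CD and 501, 2345 and 1083 in WD_CD. Acta2, its actin, had 26660, 25692 and 41444 in CD_CD and 6818, 27820 and 13939 in WD_CD, and Myl9, a regulatory light chain of smooth muscle myosin, had 14153, 8591 and 20962 in CD_CD and 1488, 12053 and 4645 in WD_CD. In each of these genes WD_CD replicate 1 was lowest and replicate 3 second lowest, while WD_CD replicate 2 lay within the range of CD_CD. The summed normalised counts of the list were 72166, 58436 and 97899 in CD_CD and 17905, 71343 and 36110 in WD_CD. Without WD_CD replicate 2 the median was -1.37, and without WD_CD replicate 1 it was -0.43. In the comparison of WD offspring by their mothers' diet, the median of the same list was 0.94.

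Promoters of the smooth muscle genes were examined because many of these genes are known targets of serum response factor, which binds the CArG box. RefSeq windows of 250 bases before the start were read for 16 of the 19 genes (17 windows) on GRCm38.p6. A CArG box, searched on both strands, was in 1 of these 17 windows (5.88%) and in 482 of 32851 windows of all genes (1.47%). The match was in Myl9, on the plus strand of chr2:156775214-156775463, where 151 bases lie between the box and the start. The stretch is shown because Myl9 is the member with a match, and capitals mark the box.
Myl9: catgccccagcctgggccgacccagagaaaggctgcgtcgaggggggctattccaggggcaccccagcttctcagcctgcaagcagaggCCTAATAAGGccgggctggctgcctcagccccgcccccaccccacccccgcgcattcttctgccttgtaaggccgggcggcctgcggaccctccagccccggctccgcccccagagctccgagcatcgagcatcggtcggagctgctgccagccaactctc
Only exact boxes within the 250 bases were counted, so variant or more distant boxes were not seen. The count therefore cannot speak to the direction that these genes share. A match describes the letters of the window. Binding was not measured in the RNA libraries.

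Macrophage and monocyte genes went the other way in 24 of 26 members, beside 46.0% of all genes above 0. Their median was 0.57, with 0 called, 0 with an unadjusted p under 0.05 and 0 without overlap. Lyz2, the lysozyme of macrophages, had normalised counts of 8873, 17575 and 13514 in CD_CD and 62372, 4505 and 26266 in WD_CD. Cd68, a lysosomal protein of the same cells, had 605, 1627 and 703 in CD_CD and 5069, 338 and 2772 in WD_CD. In both genes WD_CD replicate 1 was the highest and WD_CD replicate 2 the lowest of the 6 libraries. Leaving out WD_CD replicate 1 turned the median of the list to -0.18, and leaving out WD_CD replicate 2 gave 1.22. Genes of MHC class II, which present antigen on macrophages, dendritic cells and B cells, followed the same libraries. Of 10, 9 were above 0 with a median of 0.62, and Cd74, the invariant chain, had 8744, 7015 and 14760 in CD_CD and 43791, 5767 and 13769 in WD_CD. Without WD_CD replicate 1 their median was -0.11. Fibroblast genes were above 0 in 11 of 17 and below in 6 (median 0.22, which was -0.15 without WD_CD replicate 1 and 0.60 without WD_CD replicate 2), and the collagen-binding proteoglycan Dcn had 4391, 19345 and 7721 in CD_CD and 27974, 5397 and 18693 in WD_CD, highest in WD_CD replicate 1 and lowest in CD_CD replicate 1. The collagen gene Col1a1 went the other way (log2 fold change -0.25 ± 0.29, SE), at 6215, 7684 and 8610.5 in CD_CD and 9595, 5509.8 and 4662 in WD_CD. Both genes overlapped between groups.

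**Figure D3:**
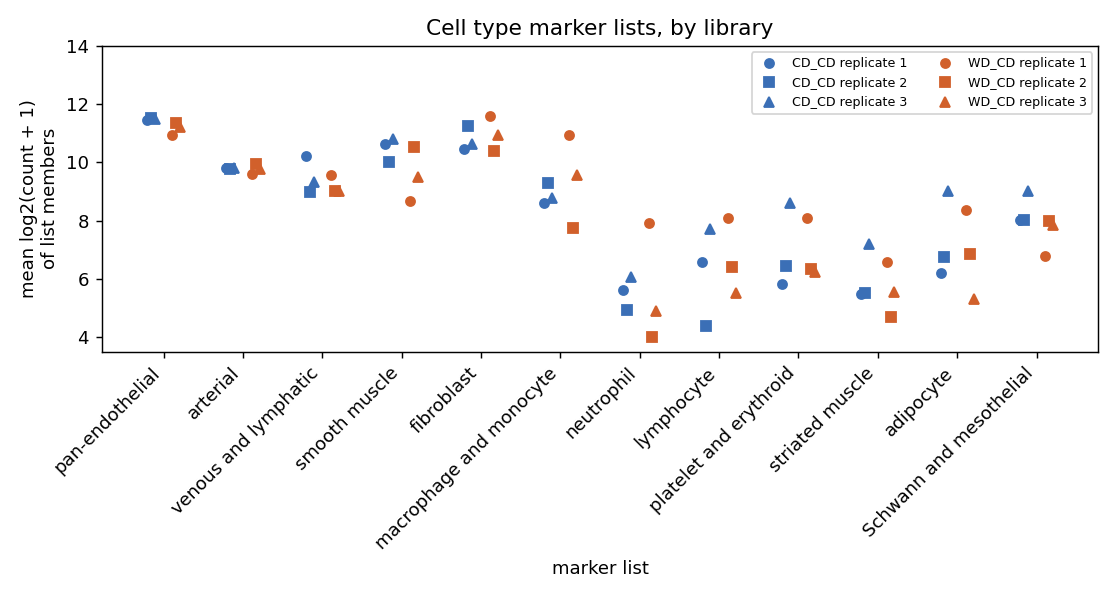
Mean log2(normalised count + 1) of the members of 12 cell type marker lists (vertical axis) in each library, by group (colour) and replicate (symbol). The endothelial and arterial lists vary least, but the endothelial list is lowest in WD_CD replicate 1, at 10.93 against 11.47 to 11.51 in CD_CD. Smooth muscle is lowest and macrophage highest in WD_CD replicate 1 too, and WD_CD replicate 2 has the lowest macrophage level of all 6.

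The macrophage and monocyte, fibroblast and MHC class II lists had group means of the log2 level that differed by less than the pooled SD of the libraries. So did the lists for lymphocytes, neutrophils, platelets and erythroid cells, striated muscle and adipocytes. Defining markers were near 0 in some libraries, for Cd3e in CD_CD only. S100a8 of neutrophils had normalised counts of 0.694, 31.1 and 56.8 in CD_CD and 319, 5.18 and 74.9 in WD_CD, and Adipoq of adipocytes had 0, 24.5 and 226 in CD_CD and 79.8, 21.5 and 0 in WD_CD. Cd3e of T cells had 31.2, 0.817 and 128 in CD_CD and 156, 114 and 37.4 in WD_CD. Pparg, the regulator of fat cell identity that endothelial cells also use, had 464, 129 and 259.7 in CD_CD and 22.9, 137 and 0.669 in WD_CD, lowest in WD_CD replicate 3. Fabp4, a lipid chaperone of adipocytes and of capillary endothelium, had 23041, 5758 and 30357 in CD_CD and 6647, 8617 and 7652 in WD_CD, and CD_CD replicate 2 lay below all 3 WD_CD libraries. The part that the mixture of cells has in the other differences was not tested.

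Of the 16 genes that write, erase or read N6-methyladenosine on RNA, 10 were above 0 and 6 below, with a median of 0.13. The 2 with an unadjusted p under 0.05 were both readers, Ythdf3 and Ythdf2. Both were higher, beside 1.15% of all genes higher at that p. Ythdf2, which sends marked messengers to decay, had normalised counts of 536, 668 and 669 in CD_CD and 1332, 976 and 915 in WD_CD, all WD_CD libraries being higher. The third reader of the family, Ythdf1, had 373, 379.6 and 515 in CD_CD and 273, 343 and 401 in WD_CD and overlapped, with a log2 fold change of -0.32 ± 0.33 (SE). The eraser Fto had 0.54 ± 0.31. The median of this list was -0.11 without WD_CD replicate 3 and 0.41 without WD_CD replicate 1, and the median GC content of its transcripts, 44.4%, was the lowest of the 38 lists.

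Heat shock and chaperone genes were above 0 in 14 of 22 and below in 8, with a median of 0.13 that stayed between 0.08 and 0.19 when libraries were left out or the scaling or pseudocount was changed. The 3 members with an unadjusted p under 0.05 were all higher, beside 1.15% of all genes higher at that p. Stip1, which passes clients from Hsp70 to Hsp90, had normalised counts of 431, 782 and 549 in CD_CD and 1346, 1018 and 898 in WD_CD. Hspd1, the mitochondrial chaperonin, had 1012, 636 and 641 in CD_CD and 1195, 1118 and 1216 in WD_CD, and the groups of both genes were apart. Hspa1b, an inducible Hsp70, had 1875, 2041 and 573 in CD_CD and 3458, 1818 and 2907 in WD_CD and overlapped through WD_CD replicate 2. The constitutive Hspa8 was at 0.39 ± 0.27 and the co-chaperone Dnajb1 at -0.13 ± 0.22, so members took both signs.

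Ribosome biogenesis genes were split, 16 above 0 and 19 below, with a median of -0.10. Pno1, an assembly factor of the small subunit, had normalised counts of 40.2, 82.1 and 106 in CD_CD and 194, 188 and 481 in WD_CD, and Nol6, a nucleolar protein of the same pathway, had 6.59, 78.1 and 94.5 in CD_CD and 291, 184 and 203 in WD_CD. Both were higher in every WD_CD library. Srfbp1, a cofactor of serum response factor, had 28.1, 22.5 and 43.8 in CD_CD and 146, 119 and 227 in WD_CD and was, with Ythdf3, 1 of the 2 genes called higher in the authors' deposited table. The structural proteins of the cytosolic ribosome had a median of -0.09 over 81 genes, and the nuclear-encoded respiratory chain -0.09 over 89.

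Chromatin and DNA methylation enzymes were above 0 in 19 and below in 32 of 51, with a median of -0.22. Kdm5b, a demethylase of lysine 4 of histone H3, had normalised counts of 553, 465 and 377 in CD_CD and 254, 355 and 137 in WD_CD. Ehmt2 (G9a), a methyltransferase for lysine 9, had 242, 418 and 381 in CD_CD and 159.5, 175 and 191 in WD_CD. Both were lower in every WD_CD library, while Kdm5a, a close relative of Kdm5b, was higher in every one at 372, 409 and 552 in CD_CD and 555, 601 and 1020.5 in WD_CD. Both groups overlapped for the DNA methyltransferases examined. The maintenance enzyme Dnmt1 had 263, 186 and 218 in CD_CD and 65.3, 339 and 275 in WD_CD, and the de novo enzyme Dnmt3a had 442, 410.3 and 422 in CD_CD and 829, 371 and 230.0 in WD_CD, spread more widely in WD_CD than in CD_CD. Of 12 imprinted genes measured, 9 were below 0 (median -0.33) and none separated the groups. Cdkn1c, a growth-restraining cell cycle inhibitor expressed from the maternal allele, had 1064, 702 and 1330.5 in CD_CD and 735, 786 and 423 in WD_CD. Igf2, the growth factor expressed from the paternal allele, had 811, 396 and 814 in CD_CD and 454, 506 and 324 in WD_CD. Without WD_CD replicate 1 the median of the imprinted genes was -0.01.

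For lipids, the 23 genes of cholesterol synthesis under SREBP2 had a median of -0.33, with 7 above 0 and 16 below, but 7 of them had no read in at least 1 library. Dhcr7, the last enzyme of one branch, had normalised counts of 97.5, 71.5 and 53.2 in CD_CD and 27.1, 32.3 and 28.8 in WD_CD, lower in every WD_CD library. The LXR and efflux genes had a median of -0.08, which was -0.36 without WD_CD replicate 1 and 0.35 without WD_CD replicate 2. Of these Scd2, a fatty acid desaturase, had 1284, 1245 and 861 in CD_CD and 841, 659 and 523 in WD_CD, lower in every WD_CD library, and the cholesterol exporter Abca1 had 1042, 1361 and 876 in CD_CD and 1753, 819 and 1874 in WD_CD, which overlapped. The 28 genes of fatty acid uptake and oxidation had a median of 0.06.

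Basement membrane and elastic matrix genes were below 0 in 15 of 20, with a median of -0.39. Col4a2, a chain of the network-forming collagen of basement membranes, had normalised counts of 3211, 2096 and 2564 in CD_CD and 1068, 2133 and 1986 in WD_CD. Col15a1, which joins the basement membrane to the matrix beneath, had 271, 119.7 and 131 in CD_CD and 7.21, 87.7 and 36.1 in WD_CD, lower in every WD_CD library and lowest in replicate 1. Endothelial and smooth muscle cells both make these proteins, and the level of smooth muscle markers was lowest in the same library, whose part in the difference was not tested. The median GC content of the transcripts of this list was 56.4%, the highest of all 38 lists. TGF-beta and BMP genes were below 0 in 20 of 28 (median -0.22). Bmp4, a ligand that endothelial cells make under disturbed flow, went the other way at 3888, 3848 and 4083 in CD_CD and 4161, 7159 and 6289 in WD_CD, above every CD_CD library.

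Interferon-induced genes had a median of -0.05, with 15 of 32 above 0. Ifih1, a sensor of double-stranded RNA, was lower in each WD_CD library at normalised counts of 478, 322 and 166 in CD_CD and 159.9, 114 and 130.4 in WD_CD. Class I MHC genes had a median of 0.08, and H2-K1 had 11040, 17423 and 14732 in CD_CD and 16684, 17278 and 17742 in WD_CD. Glycolysis and hypoxia genes had a median of -0.10, within which members took opposite sides. Ldha, which makes lactate, had 3336, 3733 and 4492 in CD_CD and 2751, 3166 and 1709.9 in WD_CD, lower in every WD_CD library. Bnip3, a hypoxia-induced gene of mitochondrial turnover, had 242, 418 and 327 in CD_CD and 427, 552 and 660.0 in WD_CD, higher in every one. The circadian clock (median 0.06 over 17) and the NRF2 targets (-0.07 over 22) lay near the median of all genes. Cell cycle genes had a median of -0.14 over 31 members and were weakly expressed. Of all 38 lists, 14 had a median above 0 and 24 below, and 0 held a gene that was called. In 25 of them the median changed sign when a library was left out or with TMM scaling or a pseudocount of 5.

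A distinct set consisted of genes with almost no reads in WD_CD. In 7 genes each of the 3 WD_CD libraries had at most 3 reads. The count cannot be set against one for CD_CD, because CD_CD replicate 3 has no value below 3 reads and only 1 gene with at most 3. Ung, the uracil glycosylase that starts base excision repair, had 312, 103 and 71 reads in CD_CD and 0, 1 and 0 in WD_CD. The reads were pooled over each group and scaled by the normalisation of its libraries, which gave a ratio of 397 (95% interval 70.9 to 15702, counting error only). Hinfp, a transcription factor of histone H4 genes, had 286, 141 and 93 reads against 2, 0 and 0, a ratio of 212 (58.5 to 1757). Car2, a carbonic anhydrase, had 43, 70 and 131 reads against 1, 0 and 0 (199, interval 35.4 to 7899). Dusp14, a phosphatase of MAP kinases, had 61, 92 and 99 reads against 0 in every WD_CD library, and was at least 68.6-fold lower when the floor was 3 reads over the group. With the same floor Pacsin1, a protein of endocytosis, was at least 42.7-fold lower, and Trem1, an activating receptor of myeloid cells, at least 23.4-fold lower. All of these genes were picked for their few WD_CD reads, and the intervals leave out the spread between libraries. The ratios and intervals are therefore no test of a difference between the groups.

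These 6 named genes were among the 11 called lower in the authors' deposited table, where the other 5 were Rhbdd1, Myh1, Lrrc47, Cxcr5 and Ercc2. The adjusted p in that table was 2.62e-05 for Dusp14, Ung and Hinfp. Single libraries lost genes often in these data. At most 3 reads occurred in 252 genes of CD_CD replicate 1 and 87 of replicate 2, and in 246, 229 and 688 genes of WD_CD replicates 1 to 3. Of the 688, 307 had at least 20 normalised counts in each of the other 5 libraries. Of the 1150 genes with at most 3 reads in any of the 6 libraries, 47 were lower and 2 higher at an unadjusted p under 0.05, and their median log2 fold change was -1.58. Over the whole comparison 1238 genes (11.6%) lay at a log2 fold change of -1 or below and 550 (5.16%) at 1 or above. No listed gene had fewer than 3 reads in CD_CD replicate 3. A gene missing from all WD_CD libraries could therefore be listed, but not a gene missing from all CD_CD libraries. For this reason the counts lower and higher, the authors' calls among them, cannot be set against each other. Among the 9505 genes with more than 3 reads in every library 168 were lower and 121 higher, and the median was -0.01. What produced the missing reads was not tested. The 25 DNA repair genes were split 12 above 0 and 13 below, with a median of -0.19 that was 0.03 without CD_CD replicate 2. Of these, 3 had an unadjusted p under 0.05, all lower, beside 2.02% of all genes lower at that p. Besides Ung and Ercc2 the third was Ercc1, a nuclease subunit of excision repair, with normalised counts of 566, 315 and 464 in CD_CD and 135, 284 and 249 in WD_CD, lower in every WD_CD library. Ung and Ercc2 had at most 3 reads in a WD_CD library, and of such genes 47 were lower and 2 higher at that p. The direction of the 3 is therefore no result about DNA repair genes.

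Libraries of WD_CD were less alike among themselves than those of CD_CD. The median absolute log2 difference over genes was 0.456 to 0.529 between CD_CD libraries, 0.637 to 0.735 between WD_CD libraries, and 0.471 to 0.699 between groups. Over genes with a mean of at least 100 normalised counts these ranges were 0.414 to 0.449, 0.563 to 0.617 and 0.402 to 0.591. WD_CD replicate 2 was nearer to each CD_CD library (0.527, 0.471 and 0.505) than to either other WD_CD library (0.637 and 0.672). The first principal component (39.8% of the variance) set WD_CD replicate 3 apart from the other 5 libraries, and the second (25.7%) set WD_CD replicate 1 apart. WD_CD replicate 3 was also the library with the fewest reads, 10667657, and the most genes without a read, 463. The part of depth in its distance was not tested. The median SD of a gene's log2 values was 0.425 in CD_CD and 0.597 in WD_CD.

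**Figure D4:**
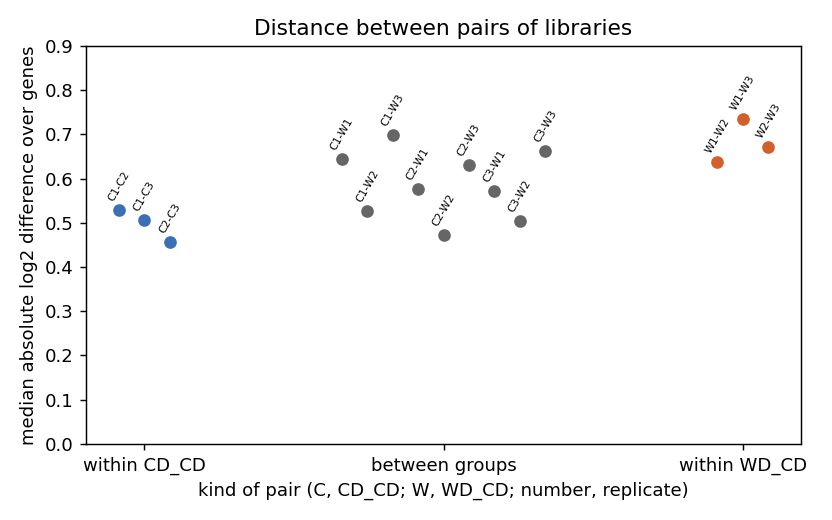
Median absolute log2 difference over 10655 genes for each pair of libraries (vertical axis), by kind of pair, with C for CD_CD, W for WD_CD and the replicate number. Pairs within CD_CD lie between 0.456 and 0.529, pairs within WD_CD at 0.637 or above, and the lowest pairs between groups, which fall among those of CD_CD, are those with WD_CD replicate 2.

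The differences varied with the base composition of the transcripts. With genes divided into 4 equal bins by transcript GC content, the median log2 fold change was 0.03 in the lowest bin, then -0.01, -0.06 and -0.15 in the highest. Genes with an unadjusted p under 0.05 were 47 higher and 26 lower in the lowest bin, and 12 higher and 82 lower in the highest. Jup, with 58.8% GC, Nos3, with 58.2%, and Cldn5, with 60.5%, belong to the highest bin, which starts at 54.4%, and Ythdf3, with 38.4%, to the lowest. Relative to each gene's mean, CD_CD replicate 3 went from -0.07 to 0.23 across the bins and WD_CD replicate 3 from 0.12 to -0.05. The highest bin stayed below the lowest without each library in turn, by the least without CD_CD replicate 3 (-0.11 against -0.02). By transcript length the medians were between -0.07 and -0.02. The part of GC content in the differences of single genes was not tested.

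**Figure D5:**
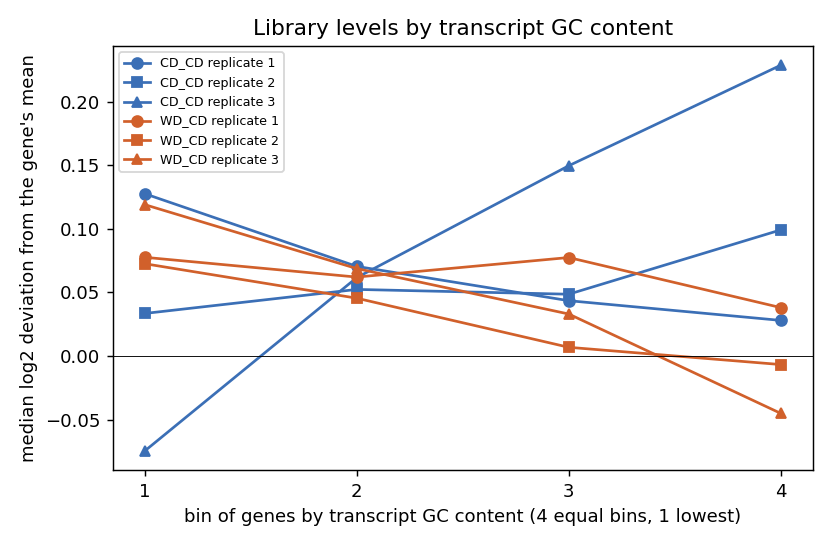
Median log2 deviation from each gene's mean over the 6 libraries (vertical axis) by bin of transcript GC content (horizontal axis, 4 equal bins, 1 is lowest), per library. CD_CD replicate 3 climbs from -0.07 to 0.23, CD_CD replicate 1 and WD_CD replicates 2 and 3 decline, and libraries of the 2 groups overlap in every bin.

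The same contrast of mothers was available in offspring on WD, in 6 other libraries that share none with this comparison. There too 0 genes were called (limma, own fit), and the difference between the effects in CD and in WD offspring was called for 0 genes, with 342 at an unadjusted p under 0.05. Of the 338 genes with an unadjusted p under 0.05 in CD offspring, 176 (52.1%) had the same sign in WD offspring, beside 51.7% of all genes. Of the 16 genes with the smallest p, 8 had the same sign. Thbs1 was 1 of these, with a log2 fold change of 1.02 in WD offspring against 1.33 in CD offspring, and Slc11a1 another, with 1.76 against 1.30. Ythdf3 was not, with -0.13 against 1.56 (interaction adjusted limma p 0.997), and Jup had -0.33 against -1.16.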

How the data were processed

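RNA of 12 aortic endothelial libraries was measured, and the 6 of CD offspring entered the tests. Per the submitters' processing notes, the tools included HISAT2 2.2.1, featureCounts 2.0.1 and DESeq2, and the build was GRCm38. Settings, strand handling and the gene filter are not stated in the sources used here. The values deposited by the authors are a normalised signal: in each library all were whole multiples (100%, tolerance 0.01) of what 1 read is worth, so reads were recovered. For CD_CD replicate 3 the smallest value stood for 3 reads. The log2 fold changes, p-values and adjusted p-values deposited by the authors were used only where named.

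Values were put on the log2(value + 1) scale, which understates changes of low genes, and tested with limma 3.58.1 (R 4.3.3; 4 residual degrees of freedom). Alternatives were edgeR 4.0.16 and DESeq2 1.42.0 on recovered reads, other pseudocounts, filters, scaling and variance settings, all 12 libraries, a replicate block and omission of each library. The difference between effects used all 12 libraries. The script was tested on simulated data. Genes named were the 8 with the smallest p in each direction, the 8 largest differences in each direction without overlap at a mean of at least 1000, up to 3 members per list by p, defining members of lists whatever their value, and genes called in the authors' table. Some genes that these parts would name are not reported here. The members and the 38 gene lists were chosen with earlier results of these data known. Positions, transcript length and GC content came from GENCODE vM21 (matched for 99.6% of genes), promoter windows from RefSeq. Other assays of the series were not analysed here.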

Additional observations from a re-analysis of the deposited data

How the results depend on the processing

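The count of genes with an adjusted p under 0.05 was 0 in the chosen analysis and in 15 of 16 alternatives. With DESeq2 on the recovered reads it was 2 (Ung at a log2 fold change of -8.42 and Hinfp at -7.72). When each library was left out in turn it was 0 each time. Genes at an unadjusted p under 0.05 numbered 79 to 331 (higher) and 64 to 469 (lower) under these omissions, most without WD_CD replicate 2 and fewest without CD_CD replicate 1; without CD_CD replicate 3 there were 119 higher and 81 lower, and without WD_CD replicate 1 166 and 377. Requiring more than 3 reads in every library, an alternative chosen after seeing the data, gave 151 higher and 192 lower.

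Same-numbered libraries did not deviate together (r of -0.0881, -0.0898 and -0.0754). The fit with a replicate block called 0 genes, with 99 higher and 178 lower at an unadjusted p under 0.05.

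Of 111 named genes followed across the settings, 96 kept their sign in every setting. The other 15 had log2 fold changes that crossed 0 when single libraries were left out: Adipoq -2.64 to 1.27, Cd74 -0.12 to 1.34, Cdh5 -0.36 to 0.11, Dnajb1 -0.23 to 0.0076, Dnmt1 -0.71 to 0.47, Dnmt3a -0.54 to 0.38, Fos -0.39 to 0.34, Icam1 -0.20 to 0.54, Klf2 -0.18 to 0.089, Klf4 -0.16 to 0.035, Lyz2 -0.24 to 1.66, Pecam1 -0.16 to 0.24, Sele -0.0081 to 1.46, Tek -0.33 to 0.14 and Tie1 -0.34 to 0.095. With edgeR the sign also changed for Dnmt1 (0.024), Dnmt3a (0.16), Fos (-0.023) and Pecam1 (-0.0016), and with DESeq2 for Cdh5 (0.015), Dnmt1 (0.039), Dnmt3a (0.18) and Fos (-0.0063); the cause was not tested. TMM scaling shifted the median log2 fold change by -0.0098.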

Other observations

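Other vascular and muscle genes belong to lists that the report gives only by level. Of 14 arterial genes, 5 were above 0 and 9 below, with a median log2 fold change of -0.09, and their mean log2 level was 9.79 in each CD_CD library and 9.60, 9.94 and 9.79 in WD_CD. Gja4 (connexin 37), a gap junction protein of arterial lining, had normalised counts of 3089.7, 2500.2 and 2991 in CD_CD and 2296, 1601 and 2738 in WD_CD and overlapped. Notch4, a receptor of arterial identity, had 959.6, 999 and 1031 in CD_CD and 775, 881 and 758 in WD_CD, lower in every WD_CD library. Fbln5, an elastic fibre protein, had 11786, 12562 and 7662 in CD_CD and 12876, 12701 and 15994 in WD_CD, higher in every WD_CD library. Of 6 venous and lymphatic genes, 4 were below 0. Nrp2, a co-receptor for VEGF-C, had 412, 214 and 291 in CD_CD and 289, 87.7 and 89.6 in WD_CD, with CD_CD replicate 2 below WD_CD replicate 1.

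Striated muscle genes, 12 above 0 and 11 below, took opposite directions. Tcap, a titin cap protein of the sarcomere, had normalised counts of 629, 288 and 309.6 in CD_CD and 75.5, 177 and 201 in WD_CD, lower in every WD_CD library. Mb (myoglobin) had 277, 246 and 123 in CD_CD and 515, 233 and 1117 in WD_CD, and WD_CD replicate 3 held the most. The cardiac myosin Myh6 was also highest there, at 401, 452 and 146 in CD_CD and 520.1, 183 and 1121 in WD_CD. Among clock genes Bhlhe40, a repressor of the loop, had 1375, 2069 and 826 in CD_CD and 2276, 3951 and 1364 in WD_CD, which overlapped. Ciart, another repressor, had 79.8, 68.2 and 136 in CD_CD and 175, 152 and 223 in WD_CD, higher in every WD_CD library.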
